A study of Mus musculus with 2 samples.

Results

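Mir139 was 1 of 2202 annotated miRNA genes with read counts in the left cerebral cortex of mice. It was picked by its gene name, and it was already known from these counts to have the highest mean level, so its level and its ratio between the libraries are given as descriptions without a test. The series held 1 group of 2 male B6CASTF1/J mice, first-generation hybrids of C57BL/6J and CAST/EiJ, aged 2 months and without a treatment in the labels. Each animal gave 1 library of short RNA fragments, named here library 1 (male 3) and library 2 (male 4). The labels number the animals separately, yet both libraries carry the same donor identifier. Whether the spread between them lies between animals or is technical therefore cannot be told, and each SD below rests on 2 values.

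MicroRNAs (miRNAs) are cut from hairpin-shaped precursors and guide silencing complexes to mRNAs, mainly through the seed near their 5′ end. Many hairpins lie in introns of protein-coding genes and are transcribed with their host. Mir139 is such a gene. Its host Pde2a encodes a phosphodiesterase that breaks down the second messengers cAMP and cGMP, is stimulated by cGMP and is abundant in brain. The miR-139-5p arm is known for repressing Igf1r, Rock2 and Cxcr4, and has been studied mostly as an miRNA that is lost in tumours.

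The Mir139 hairpin (ENSMUSG00000065446.1; mm10, chr7:101475376-101475443, plus strand, 68 bases) is shown with its arms in capitals, since every read below was assigned to this stretch. The sequences of the hairpin and of all arms are those of RefSeq (GRCm38.p6), and the hairpin is identical to that of GENCODE M21.
Mir139 hairpin: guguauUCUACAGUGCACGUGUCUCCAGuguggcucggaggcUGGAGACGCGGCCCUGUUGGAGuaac
The mature arms of 22 bases follow, here with the seed (bases 2 to 8) in capitals.
miR-139-5p: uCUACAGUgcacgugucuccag
miR-139-3p: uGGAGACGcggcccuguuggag
The counts were given per hairpin, so the reads of these arms were not separated. Beside them stand the 5′ arms of the 4 genes that come next by mean level, all of the let-7 family, with the same marking.
let-7g-5p: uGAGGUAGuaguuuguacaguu
let-7b-5p: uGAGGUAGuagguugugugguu
let-7i-5p: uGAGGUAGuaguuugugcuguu
let-7d-5p: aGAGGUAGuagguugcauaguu
These 4 share 1 seed, whereas neither Mir139 seed occurs at bases 2 to 8 of a mature arm of another gene in the RefSeq table. That holds for many miRNAs, as 84.5% of the 1398 distinct seeds in the table belong to 1 gene.

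Mir139 lies in the second intron of all 4 protein-coding Pde2a transcripts in GENCODE M21. Pde2a (chr7:101421691-101512827, plus strand) has 12 annotated transcripts, and 10 of them span Mir139. In the protein-coding transcripts the intron is 29902 bases long (chr7:101451469-101481370). The hairpin starts 23907 bases after the end of exon 2 and ends 5927 bases before exon 3. The annotated transcripts that hold it start between 14432 and 53685 bases upstream of it, at 9 positions. An overlapping protein-coding gene model, Gm45837, also holds Mir139 in an intron. The level of the Pde2a mRNA was not analysed here.

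**Figure D1:**
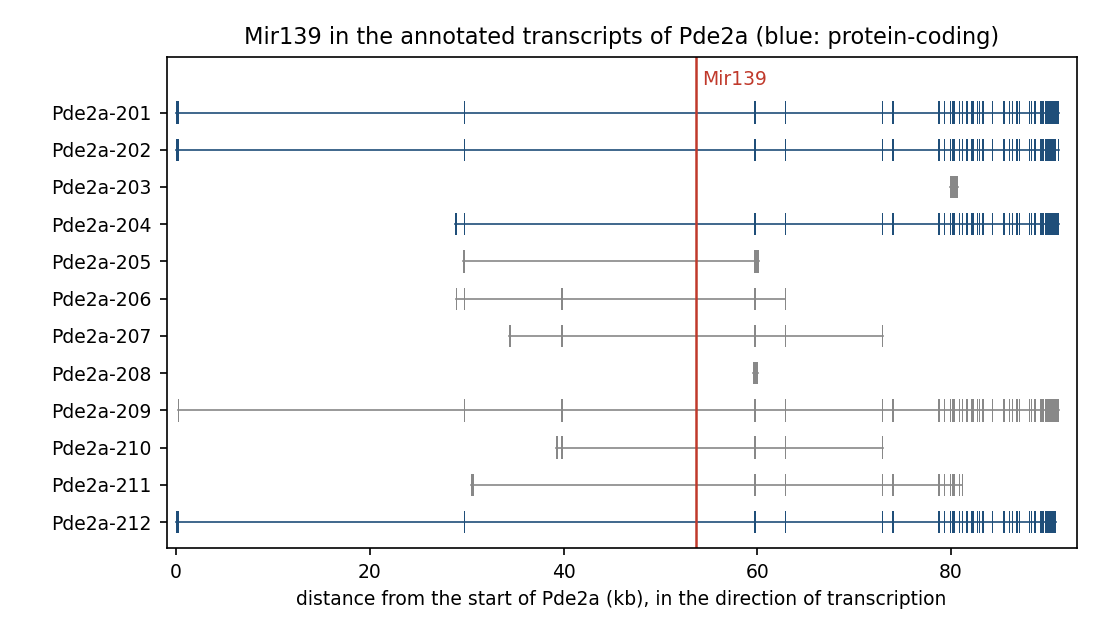
Annotated transcripts of Pde2a, drawn to scale in kb from the start of the gene, with exons as boxes, introns as lines, protein-coding transcripts in blue and others in grey. The red line marks Mir139, which falls in the intron before the third exon of each of the 4 protein-coding transcripts.

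Mir139 stood farther from exons and from other miRNA genes than most. Its nearest annotated host exon, of any transcript, was 5841 bases away, against a median of 476 bases over the 170 intronic genes with 10 or more reads in both libraries, of which 22.4% lay farther. Over all 741 intronic genes the median was 1564 bases, and 32.7% lay farther. Its nearest other miRNA gene, Gm22655, was 405741 bases downstream and had no read in either library. A read count of 0 allowed up to 0.784 CPM in library 1 and 0.659 CPM in library 2, where CPM scales each library to 1000000 reads on the strand of miRNA genes. Over the 406 genes with 10 or more reads in both libraries, called detected here, the median distance to the nearest other miRNA gene was 29839 bases, and 20.2% lay farther from one than Mir139. Mir139 therefore had no read-bearing annotated miRNA gene within 500 kb.

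On its own strand Mir139 collected 525954 reads from library 1 and 426884 from library 2. These were 13.7% of the 3827158 sense-strand miRNA reads in library 1 (95% exact interval 13.71 to 13.78%) and 9.38% of the 4553291 in library 2 (9.35 to 9.40%). The intervals cover counting error only, since without molecular identifiers several reads can stem from 1 molecule. On the CPM scale the level was 137427 in library 1 and 93753 in library 2. The high value was thus that of the library with fewer reads in all. The mean was 115590 ± 30882 CPM (SD, n = 2). In bulk tissue, fewer cells of a type and less RNA per cell cannot be told apart.

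A large part of the counted miRNA reads thus came from a single hairpin. In library 1 the 2154 genes with the lowest levels, of 2202, together held fewer reads than Mir139, and in library 2 the lowest 2142 did. Mir139 stood 1488-fold above the median detected gene in library 1 and 999.7-fold above it in library 2. Of all reads in the libraries, including those not mapped or not in miRNA genes, Mir139 held 4.62% and 3.29%. Reads mapped to several places made up 41.7% and 41.1% of the libraries and are given to no gene in files of this layout. If all of those were miRNA reads, the Mir139 share would be 6.14% and 4.32%.

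The order of the leading genes was not the same in both libraries. It covers only reads that were given to a gene, without the 41.7% and 41.1% of reads mapped to several places. Genes whose copies share a mature sequence lose such reads, so this is no order of miRNAs by abundance. Mir139 was first in library 1, at 1.51-fold the level of Mirlet7g, and second in library 2, at 0.810-fold. Mirlet7g, of a family known for repressing growth-promoting genes, was at 90787 CPM in library 1 and 115681 CPM in library 2. The means of both genes therefore differed by less than their spread, and the ranges overlapped. Mirlet7b followed at 75776 and 73991 CPM, and Mir139 was above it in both libraries without overlap, 1.81-fold and 1.27-fold. Mirlet7i and Mirlet7d lay lower still, with Mir139 2.86-fold and 1.51-fold above the first and 3.53-fold and 1.85-fold above the latter. Mir127, an imprinted gene of the Dlk1-Dio3 region, stood at 35649 and 50487 CPM, and Mir139 was 3.86-fold and 1.86-fold above it.

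**Figure D2:**
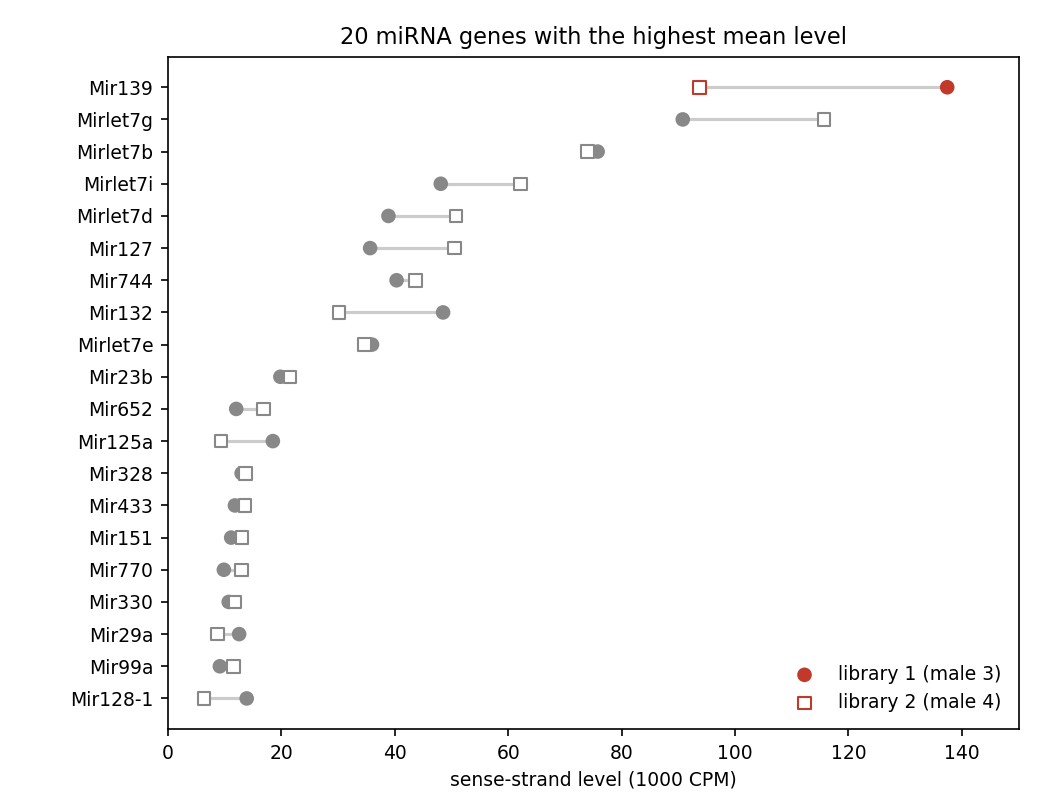
Levels of the 20 miRNA genes with the highest mean, in units of 1000 CPM on a linear axis, with filled circles for library 1, open squares for library 2 and Mir139 in red. Mir139 sits at 137427 CPM and 93753 CPM, and Mirlet7g is the only other gene of the 20 to reach the lower of these values, in library 2.

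A small RNA read covers an arm from end to end, so levels were not divided by length. Divided by the annotated length, Mir139 was again first by the mean. Grouped by seed, it was second. The 13 genes with an arm of the let-7 seed summed to 323200 CPM, against 115590 CPM for Mir139, the 1 gene with the miR-139-5p seed. These sums count the reads of either arm of a hairpin, and they leave out reads mapped to several places, which copies of let-7 genes share, so they are no measure of a seed's own level. Of the 2202 genes, 972 were matched to a RefSeq hairpin by position and strand, among them 18 of the 20 highest, and genes without a match, such as Mirlet7a-2, entered no seed group.

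All Mir139 reads lay on the strand of Pde2a. The antisense column held 0 reads at Mir139 in both libraries, which allows an antisense share of up to 0.000570% in library 1 and 0.000703% in library 2. The column that ignores strand held the same 525954 and 426884 reads. This column matched the sense column in 18 of the 20 genes with the highest mean. The exceptions were Mirlet7b, with 11 and 5 antisense reads, and Mirlet7e, which had 137692 and 157632 sense reads and 0 when strand was ignored. Antisense reads were absent at 382 of the 406 detected genes, so their absence is shared by most of them.

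The sequence of Mir139 set its reads apart from those of other annotated genes. The longest run of bases that its hairpin shared with any of the 2201 other miRNA hairpins, on either strand, was 11 bases. An exact search of 141767 GENCODE M21 transcripts found each mature arm in Mir139 alone, on either strand. Introns and the space between genes were not searched. Of the 20 highest genes, Mir23b and Mir128-1 shared a stretch of 20 bases with another annotated hairpin. Reads of such genes can map to several places, while no such stretch was found for Mir139.

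The hairpin was short, rich in G and C, and stable for its length in a predicted fold. Its 68 bases compare with a median of 82 over the detected genes, of which 19.0% were shorter. Its content of G and C was 58.8%, against a median of 52.3%. The fold of lowest predicted energy had 25 base pairs and -35.6 kcal/mol, or -0.52 kcal/mol per base, where the detected genes had a median of -0.43 and 16.0% were lower. The 14 bases between the arms hold UGU and GUG, overlapping in the same 4 letters. These are letters known from apical loops that favour cutting by the Microprocessor complex. A search for UGU or GUG on the RNA strand between the arms found either in 41.1% of 644 RefSeq hairpins with 2 mature arms, so their presence is common.

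Among miRNA genes in a same-strand intron of a protein-coding gene, Mir139 had the highest mean. That class held 741 genes, of which 170 were detected (22.9%, against 18.4% of all annotated miRNA genes) and 394 had no read. It held 45.8% of the sense-strand miRNA reads in library 1 and 45.1% in library 2. Mir139 supplied 30.0% of the reads of the class in library 1 and 20.8% in library 2. With Mir139 left out of the class but kept in the totals, the class held 32.0% and 35.7%, so the order of the libraries turned without this 1 gene. The size of that gap depends in part on keeping Mir139 in the totals. The median log2(mean CPM + 1) was 0.00 in the class and 0.00 over all annotated genes, because most genes of either had no read. Over detected genes alone it was 5.47 in the class and 6.59 over all.

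The other leading intronic genes were Mirlet7g in Wdr82, Mir744 in Map2k4, Mirlet7e in Spaca6 and Mir23b in 2010111I01Rik. Mir744 stood at 40314 and 43617 CPM, below Mir139 in both libraries by 3.41-fold and 2.15-fold. Mirlet7e was at 35978 and 34619 CPM and Mir23b at 19820 and 21483 CPM. None of Mir744, Mirlet7e or Mir23b differed between the libraries by as much as Mir139. Their ratios of library 1 over library 2 were 0.924, 1.04 and 0.923. Lower in the class, Mir128-1 in R3hdm1 had a larger ratio than Mir139, at 13881 and 6392 CPM (ratio 2.17). The share of the class with a ratio as large was not counted.

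**Figure D3:**
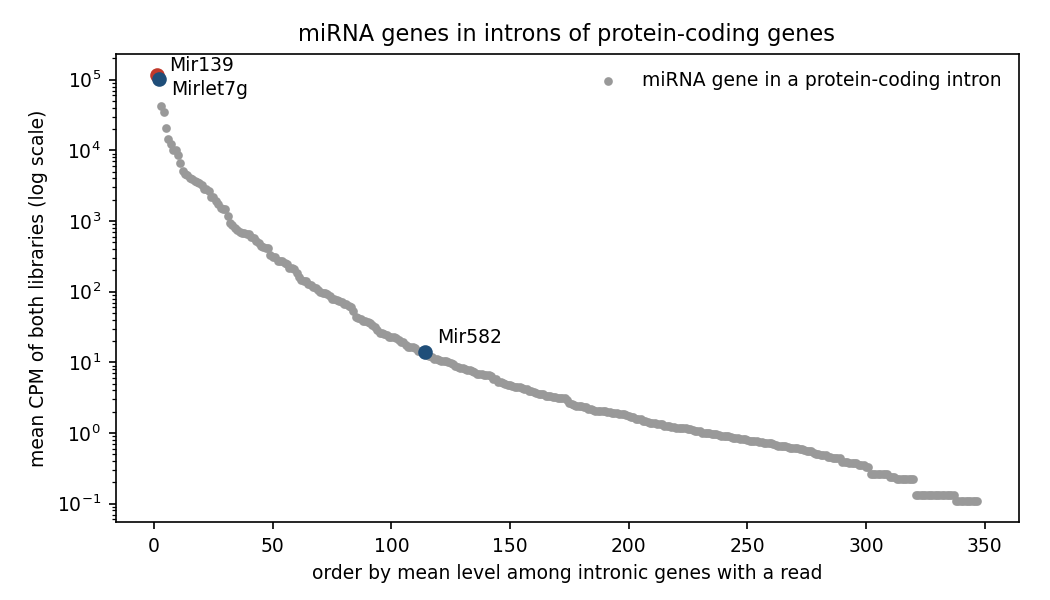
Mean CPM, on a log axis, of the miRNA genes with a read that lie in a same-strand intron of a protein-coding gene, ordered from highest to lowest. Mir139 leads with a mean of 115590 CPM, and Mir582, in an intron of Pde4d, is marked at 14.1 CPM.

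Other miRNA genes hosted by genes of cyclic nucleotide signalling were low, as were most annotated miRNA genes, of which 1444 of 2202 had no read. By host symbol, 6 were annotated beside Mir139. Mir582, in an intron of Pde4d, which encodes a phosphodiesterase specific for cAMP, had 61 and 56 reads (15.9 and 12.3 CPM), so that Mir139 was 8622-fold and 7623-fold above it. Mir1904, in another intron of Pde4d, had no read in either library. Gm44413, in an intron of Pde1c, which encodes a calmodulin-dependent phosphodiesterase, also had none. Mir7010, at an exon of Gucy1a1, which encodes a subunit of soluble guanylate cyclase, had 2 and 4 reads. Mir7225, at an exon of Pde4dip, which encodes a scaffold protein, had no read. Mir7672 had 2 reads in each library, and its host Pde12 matches by symbol although its enzyme acts on RNA ends and not on cAMP or cGMP. Of the 7 genes, Mir139 and Mir582 were detected, 28.6%, against 18.4% of all annotated miRNA genes. Mir139 was already known to be high, and of the 6 others Mir582 alone was detected. With 7 genes this is no more than a count.

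Mir139 was 1.47-fold higher in library 1 than in library 2 (log2 ratio 0.55, 95% exact interval 0.546 to 0.558). The interval covers counting error alone. The coefficient of variation between its CPM values was 26.7%. The coefficient of variation between the libraries beyond counting error was 31.5% over the 406 detected genes, from the common dispersion of edgeR. A value from 2 libraries of 1 gene and an estimate over all genes are not directly comparable, so the ratio is set against those of the other genes. A ratio at least as large, in either direction, was seen in 29.6% of the 406 detected genes, and in 19.5% with library 1 higher. With edgeR's upper quartile scaling, where the Mir139 log2 ratio was 0.41, the share at least as large in either direction was 47.5%. Among the 92 genes with a mean of at least 1000 CPM the shares were 21.7% and 18.5%. The ratio of Mir139 was thus larger than that of most of these genes, and a sizeable part had one as large.

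**Figure D4:**
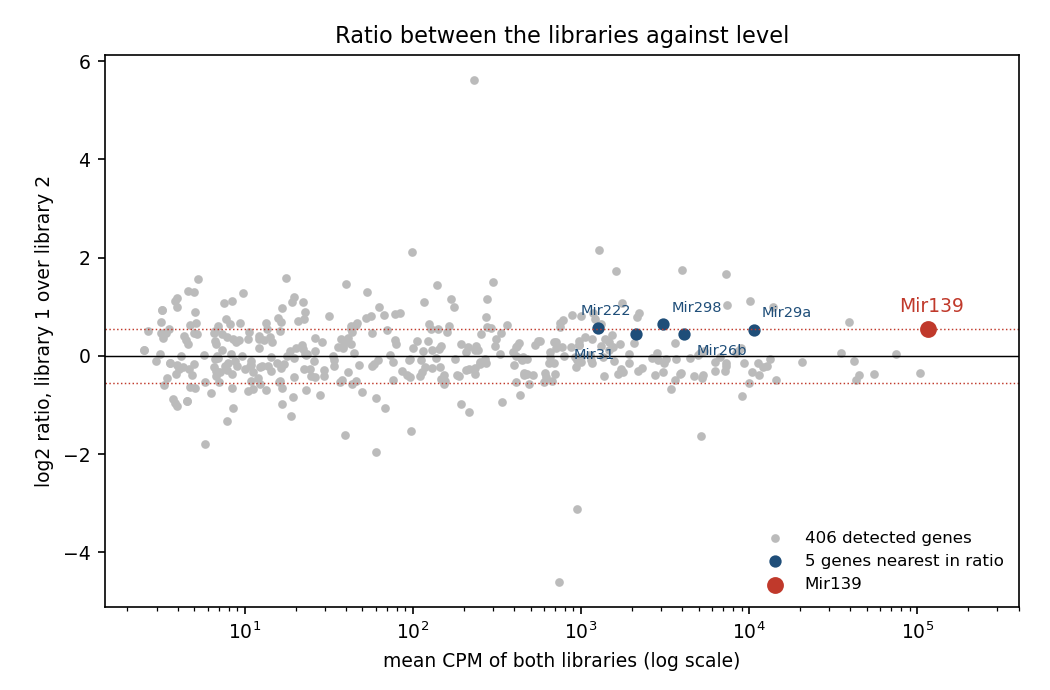
Log2 ratio of library 1 over library 2 against mean CPM on a log axis, for the 406 detected genes in grey, Mir139 in red and the 5 genes with the nearest ratio in blue. Dotted lines mark the Mir139 log2 ratio of 0.55 in both directions, and 29.6% of the genes lie on or outside them. With upper quartile scaling, not drawn here, the Mir139 log2 ratio was 0.41, and 47.5% of the genes had one at least as large.

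Because of its level, this ratio carried a larger difference in CPM than that of any other gene. The share of Mir139 differed by 4.37 percentage points between the libraries, the largest difference of all 2202 genes. It made up 16.9% of the absolute differences in CPM summed over all genes. A higher Mir139 also lowers the CPM of every other gene in the same library. When Mir139 was left out of the totals, the ratio of library 1 over library 2 of each other gene rose by a factor of 1.05. The median ratio of the detected genes was 1.00 with Mir139 in the totals and 1.05 without it.

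The direction of the Mir139 ratio was the same under the 8 scalings that were run, and its size was not. It was lowest with edgeR's upper quartile, at a log2 ratio of 0.41 (1.33-fold). It was highest relative to the median ratio of the 20 highest genes, at 0.68 (1.60-fold). Trimmed mean scaling (TMM) gave 0.54 and DESeq2 size factors gave 0.51.

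**Figure D5:**
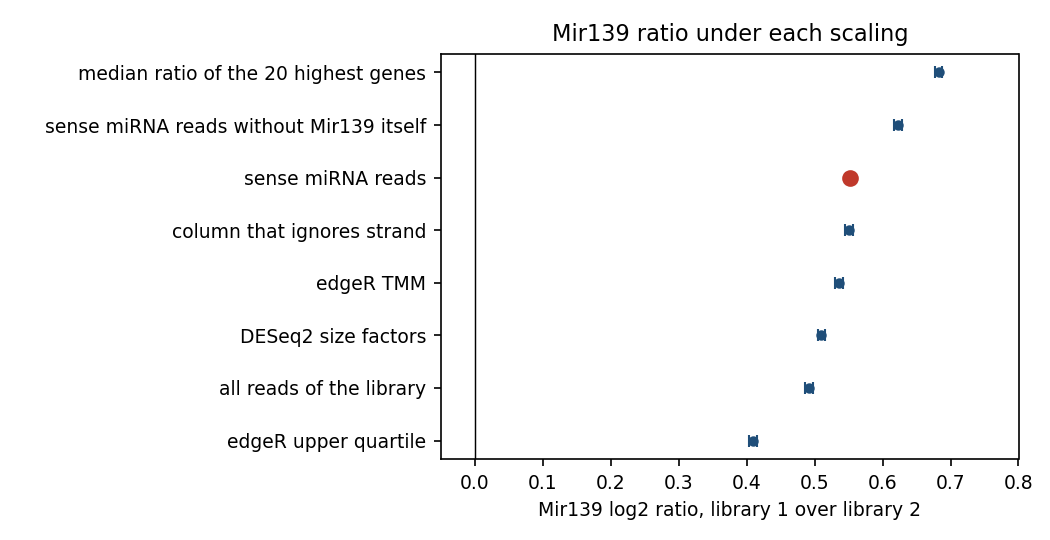
Log2 ratio of Mir139, library 1 over library 2, under 8 scalings, with 95% exact intervals for counting error as bars and the value used in the text in red. All 8 values lie above 0, from 0.41 to 0.68.

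The genes with a mean of at least 1000 CPM whose ratio was nearest to that of Mir139 were Mir222, Mir29a, Mir298, Mir31 and Mir26b. Likeness here is the difference in log2 ratio over 2 libraries, and with so few samples many genes come close. Mir222, known for repressing the cell cycle inhibitor Cdkn1b, stood at 1500 and 1009 CPM (ratio 1.49). Mir29a, of a family strong in astrocytes, stood at 12547 and 8703 CPM (ratio 1.44), so Mir139 was 11.0-fold and 10.8-fold above it. Mir298 had 3754 and 2403 CPM (ratio 1.56), Mir31 had 2452 and 1794 CPM (ratio 1.37), and Mir26b, in an intron of the phosphatase gene Ctdsp1, had 4753 and 3479 CPM (ratio 1.37). Of the 5, Mir26b alone lies in an intron of a protein-coding gene on its strand.

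Summed levels of the cell type marker lists differed between the libraries, 4 lists with library 1 higher and 3 with library 2 higher, of which 1 is a single gene. Of the 406 detected genes, 203 were higher in library 1, so a split of this kind is near that of all genes. The neuron list had 9 of 12 genes detected and summed to 77660 CPM in library 1 and 52536 CPM in library 2, a ratio of 1.48. Its detected genes had a median ratio of 1.07, with 5 higher in library 1 and 4 in library 2, and most of the sum came from Mir132 (48515 and 30152 CPM) and Mir128-1 (13881 and 6392 CPM). The astrocyte list (4 of 4 detected) summed to 14342 and 9860 CPM, with a median ratio of 1.51 and all 4 genes higher in library 1. Its genes are Mir29a, Mir29b-1, Mir29b-2 and Mir29c, all of 1 family, so they are not 4 separate lines of evidence. The oligodendrocyte list (3 of 3) summed to 4981 and 3468 CPM, with a median ratio of 1.19. The microglia and leukocyte list (2 of 3 detected) was at 1352 and 1065 CPM, with a median ratio of 1.15 and the 2 detected genes higher in library 1. The endothelial and smooth muscle list (3 of 3 detected) had a lower sum in library 1, at 14355 and 18574 CPM. Its median ratio was 0.919, with 1 gene higher in library 1 and 2 in library 2. The red blood cell list (3 of 3 detected) summed to 134 and 1549 CPM, with a median ratio of 0.256. In it, Mir451a (58.3 and 1419 CPM) and Mir144 were lower in library 1, and Mir486 (51.0 and 34.7 CPM) was higher. Mir122, the 1 liver marker, was at 72.4 and 78.6 CPM. No marker was at 0 in both libraries. The lowest of the neuron list, a copy of Mir124a, was at 0.894 CPM, and copies with the same mature sequence lose reads that map to several places. The part of cell makeup in the Mir139 ratio was not tested.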

How the data were processed

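Small RNA libraries from 2 cortex samples were counted by the authors, who deposited whole-number read counts per miRNA gene, not normalized, on mm10 with GENCODE M21 per the file headers and labels. Each table has a column that ignores strand and 1 column for each strand. For the aligner and the trimming, nothing is stated in the labels or headers used here. Tally rows (unmapped, several places, no gene, ambiguous) were kept out of the totals and made up 66.3% of library 1 and 64.9% of library 2.

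CPM values are counts per 1000000 sense-strand miRNA reads. Intervals are exact 95% binomial intervals, and a count of 0 was given a limit of 3 counts. The spread between libraries came from edgeR 4.0.16 (TMM factors, intercept only) in R 4.3.3, with DESeq2 1.42.0 size factors as an alternative scaling. Folds used RNAfold 2.7.2. The remaining computations ran in Python 3.11.15 (scipy 1.17.1). With 1 group no test was run. Reads of the CAST/EiJ chromosomes that differ from mm10 may not have mapped, and this was not tested.

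Named were Mir139, the 5 genes next in mean CPM, the 5 nearest in ratio with a mean of at least 1000 CPM, miRNA genes with hosts of cyclic nucleotide signalling, the 5 highest intronic genes, and miRNA genes within 500 kb or with the same seed. Mir139 and the lists were chosen with earlier results of these data known. Mir23b, Mir128-1 and the lowest Mir124a copy are also named for values already seen. On simulated counts for the ratio of library 1 over library 2, 95.8% of the intervals over 505 genes held the true ratio. The intervals cover counting error alone, so this coverage does not bear on the spread between the libraries beyond it. A simulated coefficient of variation of 30% was recovered as 29.7% over 406 genes.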

Additional observations from a re-analysis of the deposited data

How the results depend on the processing

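The mean level of Mir139 was 115590 CPM. It moved by more than 1 SD with 2 other denominators, to 52262 per 1000000 when reads mapped to several places were added and to 39566 per 1000000 of all reads. Leaving out each library gave 93753 to 137427 CPM. The rank of Mir139 by mean CPM went from 1 to 2 when library 1 was left out and was 1 when library 2 was left out, and it was 2 among seed groups, an alternative chosen after seeing the data. Its log2 ratio of library 1 over library 2 was 0.54 with TMM, 0.51 with DESeq2 size factors, 0.41 with the upper quartile, 0.49 per all reads, 0.62 with Mir139 left out of the totals and 0.68 against the 20 highest genes. The direction was the same throughout. The share of genes with a ratio as large was 37.4% with 10 or more reads in total, 23.1% from a mean of 100 CPM, 21.7% from 1000 CPM and 47.5% with the upper quartile, the last over 1.5 times the 29.6% reported. A change of scaling shifts the log2 ratios of all genes alike. The share was taken against the Mir139 log2 ratio under the same scaling, 0.41 with the upper quartile and 0.55 in the main setting. The coefficient of variation was 33.2% with 10 or more reads in total, 33.9% from 100 CPM, 34.3% without a filter and 31.6% without TMM factors. The median log2 level of intronic genes was -3.32 with a pseudocount of 0.1 CPM and 3.32 with 10 CPM, which follows from most genes having no read, and 5.47 over detected genes. Antisense reads at Mir139 were 0 in every alternative run. Depth sets the limits on antisense reads at Mir139, and each SD rests on 2 libraries.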
